A study of Mus musculus with 6 samples.

Results

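The 10 genes described here encode the machinery that admits a cell to S phase: the D-type cyclins (Ccnd1, Ccnd2, Ccnd3), their kinases (Cdk4, Cdk6), the INK4 inhibitors of those kinases (Cdkn2a, Cdkn2b, Cdkn2c), the inhibitor p27 (Cdkn1b) and the retinoblastoma protein (Rb1). They were picked out by gene symbol from 24421 genes listed in the deposited count table, and all 10 were found and had enough counts to be tested. The study compared 3T3-L1 cells carrying a Ube3d knockout (KO) with wild-type (WT) 3T3-L1 cells, with 3 libraries of each genotype, numbered as biological replicates in their titles. 3T3-L1 is a mouse embryonic fibroblast line used as a preadipocyte model. Both genotypes were grown in the same high-glucose medium with serum and kept below full confluence. They were described as undifferentiated and in log-phase growth, so neither group was arrested or induced by treatment. The data used here hold no measurement of the cell cycle, so they do not show whether the genotypes cycled alike. The product of Ube3d is a ubiquitin ligase that associates with CPSF73, which cuts pre-mRNAs at their 3′ ends. The sources used here say neither whether the KO libraries came from a single clone nor whether the replicates were separate cultures, so p-values measure only the spread between these libraries, which may be technical.

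As background, D-type cyclins are made in response to growth factors and bind CDK4 or CDK6. The active kinases phosphorylate RB1 and its relatives, which releases E2F factors to turn on genes of DNA replication. INK4 proteins bind CDK4 and CDK6 directly and keep cyclin D off, whereas p27 inhibits cyclin E–CDK2 and is also carried by cyclin D–CDK4 complexes. In cultured fibroblasts Cdkn2a and Cdkn2b are known as brakes that accumulate with passage and limit proliferation.

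Total counts per library ranged between 25267434 and 28042970 in KO and between 23767181 and 29389480 in WT. Ube3d, listed under its older symbol Ube2cbp, had 56, 43 and 53 counts in the KO libraries and 145, 229 and 173 in the WT libraries, 3.62-fold lower in KO (edgeR adjusted p = 6.6e-18). The counts span the whole gene, so the remainder in KO cannot be assigned to a part of it. All 8 fibroblast and mesenchymal markers were detected, with summed levels of 9820 to 10100 counts scaled to library size (CPM) in KO and 13200 to 13600 CPM in WT. Of the 8, 7 were called lower in KO, beside 31.2% of all tested genes. The 4 preadipocyte markers summed to 1900 to 2010 CPM in KO and 993 to 1070 CPM in WT, with Dlk1 called higher and the other 3 lower. The 5 epithelial markers summed to at most 0.623 CPM in KO and 0.505 CPM in WT, with Epcam at 0 in every library. The 5 mature adipocyte markers summed to 0.865 to 1.17 CPM in KO and 3.43 to 3.92 CPM in WT, with Lep at 0 in every library. The 5 endothelial markers summed to 1.45 to 2.42 CPM in KO and 0.600 to 1.08 CPM in WT. The 5 leukocyte and macrophage markers summed to 6.64 to 7.26 CPM in KO and 5.35 to 6.67 CPM in WT, with Adgre1 at 0. The 4 skeletal muscle markers summed to 0.432 to 1.03 CPM in KO and 1.93 to 2.76 CPM in WT, with Myod1 and Myog at 0. The ribosomal RNA precursor gene Rn45s took 9.68% to 10.2% of counts in KO and 7.28% to 8.91% in WT.

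Cyclin D1, CDK6 and the neighbouring inhibitor genes Cdkn2a and Cdkn2b were higher in KO, and cyclins D2 and D3, CDK4, p27, p18 (Cdkn2c) and Rb1 were lower. The sizes were modest: the extremes were a 1.33-fold rise of Cdk6 and a 1.38-fold fall of Cdkn1b. All 10 genes passed an adjusted p under 0.05 (edgeR quasi-likelihood test, Benjamini-Hochberg over 12947 tested genes), 4 higher and 6 lower. The same test called 61.4% of all tested genes, 30.3% higher and 31.2% lower, and 64.9% of those with a mean of at least 5 CPM. The KO and WT libraries did not overlap in CPM for any of the 10 genes, and they did not overlap for 64.3% of all tested genes (31.8% with every KO library above and 32.5% with every KO library below). The median size of the change was 0.23 on the log2 scale over the 10 genes and 0.22 over all tested genes. The changes of the 10 genes were therefore of a size common in the table as a whole. In bulk RNA, fewer cells of a type and less RNA per cell cannot be told apart.

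**Figure D1:**
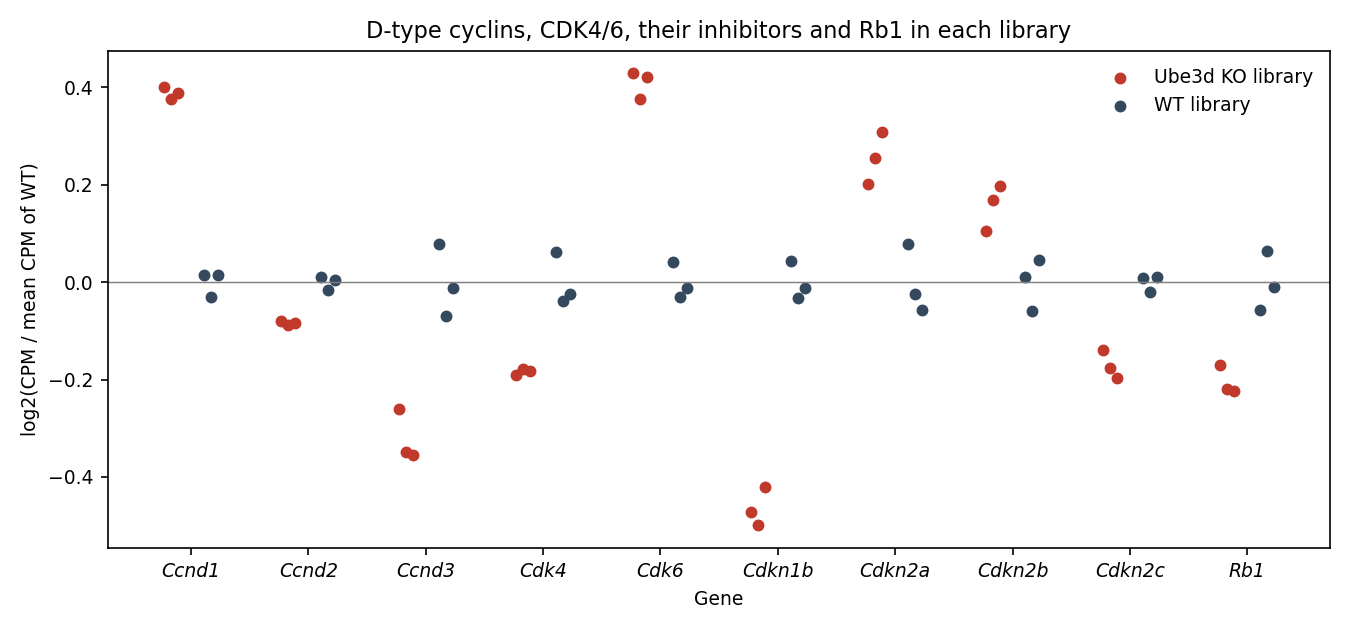
Each point is 1 library, KO left of WT for each gene, on the log2 scale of CPM over the mean CPM of WT. The KO points of Ccnd1, Cdk6, Cdkn2a and Cdkn2b lie above the WT points, and those of the other 6 genes lie below. The fold change is smallest in size for Ccnd2 (log2 −0.08).

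Ccnd1 (chromosome 7, 144929931 to 144939925, minus strand, 5 exons, GRCm38) encodes cyclin D1, the D-type cyclin most closely tied to growth-factor signalling in fibroblasts. Its level was 1163, 1143 and 1153 CPM in the KO libraries, against 889.8, 862.3 and 889.5 CPM in the WT libraries. The lowest KO library stood well above the highest WT library. The rise was 1.31-fold (log2 0.39, SE 0.03, edgeR adjusted p = 7.7e-20). The log2 value stayed between 0.37 and 0.40 under every refit of the whole table that was run. The nearest gene upstream, 1810010D01Rik, lies 266 kb away and had 0.0482 CPM in KO and 0.0255 CPM in WT. Downstream on the other strand, Oraov1 lies 8.79 kb away (log2 0.12, edgeR adjusted p = 0.23).

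Ccnd2 (chromosome 6, 127125709 to 127151048, minus strand, 5 exons) encodes cyclin D2. The RefSeq gene spans 127125162 to 127152188, so the deposited model is shorter at both its 3′ and its 5′ end. It had 871.2, 866.8 and 869.5 CPM in the KO libraries, against 928.6, 910.9 and 924.1 CPM in the WT libraries. The groups were separate but close. The fall was 1.06-fold (log2 −0.08, SE 0.03, edgeR adjusted p = 0.0081), and relative to the median change of tested genes on chromosome 6, −0.10, the value turned to 0.011 in the other direction. Tigar, 16.2 kb downstream on the same strand, was lower in KO (log2 −0.18, SE 0.08, edgeR adjusted p = 0.049).

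Ccnd3 (chromosome 17, 47505051 to 47599688, plus strand, 7 merged exons) encodes cyclin D3, known for roles in lymphocytes and muscle and during adipocyte differentiation. It had 63.9, 60.0 and 59.8 CPM in the KO libraries, against 80.7, 72.9 and 75.8 CPM in the WT libraries. The fall was 1.25-fold (log2 −0.32, SE 0.04, edgeR adjusted p = 7.3e-10). Its exons overlap 358 bases of Bysl on the other strand, which changed by −0.26 (log2, SE 0.04). The sources used here do not state the strand setting of the counting, so reads from that stretch cannot be assigned to one of the pair. Taf8, 2.76 kb upstream on the other strand, was lower in KO (log2 −0.22, SE 0.07, edgeR adjusted p = 0.006). Med20, 11.9 kb downstream on the same strand, was not called (log2 −0.04, SE 0.07).

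The makeup of the D-type cyclin pool can be compared on TPM, that is, counts per base of merged exon scaled to a common sum per library. Ccnd1 made up 63.1%, 63.0% and 63.2% of the summed D-type cyclin TPM in the KO libraries, against 54.4%, 54.4% and 54.7% in the WT libraries. Ccnd2 made up 31.3% ± 0.18 in KO and 37.5% ± 0.27 in WT (SD, n = 3 each). Ccnd3 made up 5.63% ± 0.17 in KO and 7.95% ± 0.29 in WT. The groups did not overlap for any of the 3 shares, which moved by 8.56, −6.24 and −2.32 percentage points for Ccnd1, Ccnd2 and Ccnd3. A two-sided exact permutation test gave p = 0.10 for each share, the smallest value that 3 libraries against 3 allow, and 0.10 after adjustment over the 3 shares. The summed D-type cyclin level was 1140 ± 16.6 TPM in KO and 979 ± 5.27 TPM in WT, a ratio of 1.16. TPM do not carry the scaling factors of the fit, so ratios of TPM and the fold changes are on different scales.

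**Figure D2:**
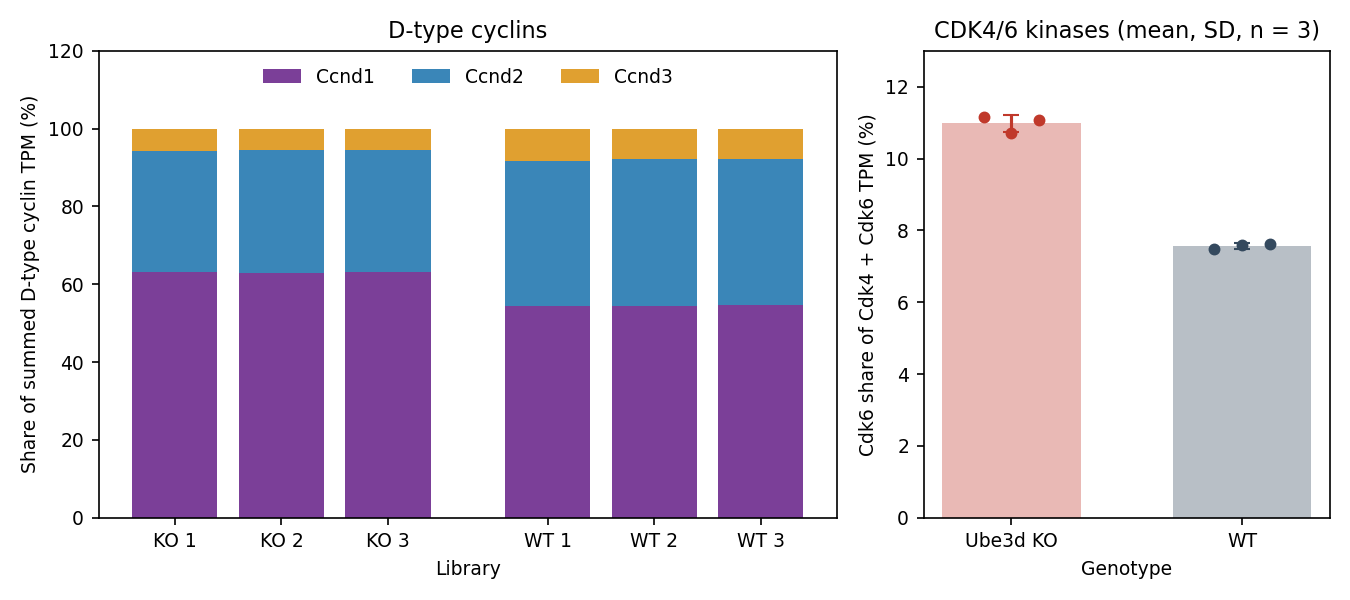
Left, stacked bars give the share of each D-type cyclin in the summed D-type cyclin TPM (percent) for each KO and WT library. Right, bars give the mean Cdk6 share of the summed Cdk4 and Cdk6 TPM (percent), error bars the SD and points the 3 libraries. The Ccnd1 share is 63.1% in KO and 54.5% in WT, and the Cdk6 share is 11.0% in KO and 7.56% in WT.

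Cdk4 and Cdk6 encode the catalytic partners of the D-type cyclins, and they moved in opposite directions. Cdk4 (chromosome 10, 127063603 to 127067282, plus strand, 8 exons) had 336.8, 339.8 and 338.6 CPM in the KO libraries, against 401.1, 374.1 and 377.6 CPM in the WT libraries. WT replicate 1 was the highest of the 6. The fall was 1.14-fold (log2 −0.18, SE 0.03, edgeR adjusted p = 2.7e-07), and without WT replicate 1 the value was −0.16. Tspan31 lies 0.008 kb past the end of Cdk4 on the other strand and changed by −0.10 (log2, SE 0.04). March9, the nearest gene upstream, lies 3.42 kb away on the other strand. It had 2.7 CPM in KO and 1.13 CPM in WT and was called higher (log2 1.26, SE 0.22, edgeR adjusted p = 6.9e-07). Upstream on the same strand, Cyp27b1 lies 10.6 kb away and had 1.06 CPM in KO and 0.212 CPM in WT.

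The sequence before the Cdk4 start is shown because it holds the most matches of the searched motifs among these genes. It is the window chr10:127063285-127063534, plus strand, RefSeq on GRCm38.p6, read 5′ to 3′ and ending at the base before the transcript start, with matched motifs in capitals:
Cdk4: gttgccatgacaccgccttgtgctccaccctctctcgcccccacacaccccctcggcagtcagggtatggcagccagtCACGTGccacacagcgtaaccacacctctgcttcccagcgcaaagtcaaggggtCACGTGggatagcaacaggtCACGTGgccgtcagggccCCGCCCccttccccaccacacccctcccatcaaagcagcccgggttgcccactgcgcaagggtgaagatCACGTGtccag

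It holds 4 copies of CACGTG, the E-box that MYC and related factors are known to bind, 172, 118, 98 and 11 bases before the start. It also holds the GC box (GGGCGG) once, in reverse orientation. Myc had 108.6 ± 2.18 CPM in KO and 93.4 ± 1.73 CPM in WT (1.16-fold higher, edgeR adjusted p = 2e-07), whereas Cdk4 was lower. Whether MYC acts on Cdk4 in these cells was not tested.

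Cdk6 (chromosome 5, 3344312 to 3522225, plus strand, 7 exons) had 77.7, 74.9 and 77.3 CPM in the KO libraries, against 59.4, 56.5 and 57.2 CPM in the WT libraries. Every KO library was higher than every WT library, with a gap several times the spread within either genotype. The rise was 1.33-fold (log2 0.41, SE 0.04, edgeR adjusted p = 5.2e-14). Tested genes of chromosome 5 had a median log2 change of 0.19, and relative to it Cdk6 was higher by 0.22. Fam133b, 21.6 kb downstream on the same strand, was lower in KO (log2 −0.15, SE 0.05, edgeR adjusted p = 0.0081). The deposited gene model of Cdk6 ends at 3522225, whereas the RefSeq gene ends at 3531008, so its level counts only part of the gene's 3′ end. The RefSeq gene begins at 3341004, and the RefSeq window given here for the gene with the largest rise, chr5:3343643-3343892, plus strand, precedes a transcript start within that span:
Cdk6: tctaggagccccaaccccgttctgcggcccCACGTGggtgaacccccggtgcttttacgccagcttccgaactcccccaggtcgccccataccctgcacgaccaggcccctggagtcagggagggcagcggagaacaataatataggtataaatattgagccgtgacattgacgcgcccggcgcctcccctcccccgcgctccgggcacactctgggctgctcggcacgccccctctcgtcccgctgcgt

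This window holds 1 CACGTG, 220 bases before the start, and none of the other motifs searched.

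Cdk6 made up 11.2%, 10.7% and 11.1% of the summed Cdk4 and Cdk6 TPM in the KO libraries, against 7.47%, 7.60% and 7.62% in the WT libraries. The difference was 3.42 percentage points (two-sided exact permutation p = 0.10, the smallest possible with 3 against 3). The pair summed to 669 ± 3.11 TPM in KO and 710 ± 15.0 TPM in WT (SD, n = 3 each). Cdk4 had the higher TPM of the pair in both genotypes.

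The inhibitor genes divided by locus. Cdkn2a and Cdkn2b, which lie next to each other on chromosome 4, were higher in KO, while Cdkn2c, elsewhere on chromosome 4, and Cdkn1b on chromosome 6 were lower. Tested genes of chromosome 4 had a median log2 change of 0.02.

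Cdkn2a (chromosome 4, 89274473 to 89294619, minus strand, 4 merged exons) encodes both p16INK4a, which binds CDK4 and CDK6, and p19ARF, which acts on the MDM2–p53 axis. The proteins come from different first exons, and the gene count pools them. It had 129, 134 and 139 CPM in the KO libraries, against 119, 111 and 108 CPM in the WT libraries. The rise was 1.20-fold (log2 0.26, SE 0.03, edgeR adjusted p = 1.9e-09). The windows before its 2 RefSeq starts, both on the minus strand, are given because the count cannot tell their transcripts apart. They are chr4:89294620-89294869, before the first exon of p19ARF, and chr4:89282193-89282442, before that of p16INK4a:
Cdkn2a ARF start: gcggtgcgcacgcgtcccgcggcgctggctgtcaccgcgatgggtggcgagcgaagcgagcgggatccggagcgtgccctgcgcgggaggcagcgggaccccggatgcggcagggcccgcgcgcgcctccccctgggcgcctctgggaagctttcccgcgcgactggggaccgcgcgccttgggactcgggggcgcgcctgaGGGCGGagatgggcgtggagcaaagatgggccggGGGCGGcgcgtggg
Cdkn2a INK4a start: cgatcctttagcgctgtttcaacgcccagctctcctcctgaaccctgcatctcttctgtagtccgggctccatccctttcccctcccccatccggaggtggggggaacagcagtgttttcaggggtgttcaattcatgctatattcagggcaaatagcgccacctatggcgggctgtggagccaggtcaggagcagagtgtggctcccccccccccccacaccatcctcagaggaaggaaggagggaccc

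The ARF window is 78.4% G or C and holds 2 GC boxes, and the INK4a window is 60.0% G or C and holds none of the motifs searched.

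Cdkn2b (chromosome 4, 89306289 to 89311032, minus strand, 2 exons) encodes p15INK4b, an inhibitor of CDK4 and CDK6 known as a target of TGF-beta. It had 53.7, 56.1 and 57.2 CPM in the KO libraries, against 50.3, 47.9 and 51.5 CPM in the WT libraries. The groups came within a few CPM of each other. The rise was 1.12-fold (log2 0.16, SE 0.05, edgeR adjusted p = 0.0017). Cdkn2a lies 11.7 kb downstream of Cdkn2b on the same strand. The next gene beyond Cdkn2a, Mtap, is on the other strand 93.4 kb away and was lower in KO (log2 −0.10, SE 0.03, edgeR adjusted p = 0.0040). The window before the Cdkn2b start, chr4:89311033-89311282, minus strand, is shown beside those of its neighbour:
Cdkn2b: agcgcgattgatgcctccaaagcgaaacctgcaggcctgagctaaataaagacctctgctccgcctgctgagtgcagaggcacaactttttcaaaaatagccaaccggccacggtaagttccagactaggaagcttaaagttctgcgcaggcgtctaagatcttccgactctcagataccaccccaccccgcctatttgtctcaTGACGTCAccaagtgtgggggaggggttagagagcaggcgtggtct

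It holds the palindrome TGACGTCA, the element bound by CREB and ATF factors, 46 bases before the start.

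Cdkn2c (chromosome 4, 109660876 to 109666756, minus strand, 3 merged exons) encodes p18INK4c. It had 19.2, 18.7 and 18.4 CPM in the KO libraries, against 21.2, 20.8 and 21.3 CPM in the WT libraries. The fall was 1.13-fold (log2 −0.17, SE 0.07, edgeR adjusted p = 0.021). The call was lost without KO replicate 3 (log2 −0.16, edgeR adjusted p = 0.065) and with DESeq2 (log2 −0.17, DESeq2 adjusted p = 0.056). Cdkn2a, Cdkn2b and Cdkn2c together had 394 ± 10.3 TPM in KO and 332 ± 6.73 TPM in WT, a ratio of 1.19. The Cdkn2a part of this sum pools p16INK4a and p19ARF. Faf1, 9.87 kb upstream of Cdkn2c on the other strand, was lower in KO (log2 −0.13, SE 0.04, edgeR adjusted p = 0.0059).

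Cdkn1b (chromosome 6, 134920401 to 134925525, plus strand, 3 exons) encodes p27Kip1, which accumulates in resting cells and is degraded as cells enter the cycle. It had 48.9, 48.0 and 50.7 CPM in the KO libraries, against 69.9, 66.3 and 67.3 CPM in the WT libraries. No KO library came near the WT range. The fall was 1.38-fold (log2 −0.46, SE 0.04, edgeR adjusted p = 4.0e-15), and relative to the chromosome 6 median it was −0.37. Of all tested genes, 22.9% changed by at least as much in either direction. The neighbouring gene 1190002F15Rik, 3.57 kb downstream on the same strand, fell by 0.47 on the log2 scale (SE 0.12, edgeR adjusted p = 0.00067). Upstream on the same strand, 2810454H06Rik lies 19.6 kb away and was not called (log2 −0.28, SE 0.19, edgeR adjusted p = 0.19). The window chr6:134920151-134920400, plus strand, precedes the start of the gene with the largest fall:
Cdkn1b: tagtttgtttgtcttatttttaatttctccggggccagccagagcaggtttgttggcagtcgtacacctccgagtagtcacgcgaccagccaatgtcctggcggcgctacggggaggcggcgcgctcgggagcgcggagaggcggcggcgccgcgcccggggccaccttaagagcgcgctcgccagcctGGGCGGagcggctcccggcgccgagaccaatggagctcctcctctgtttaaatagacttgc

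It holds 1 GC box, 61 bases before the start.

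For 7 of the 10 genes the RefSeq promoter table gave 10 such windows of 250 bases, and Ccnd1, Ccnd2 and Rb1 had none. The motifs searched, on both strands, were the E2F sites TTTGGCGC and TTTCGCGC, the AP-1 site TGACTCA, the CRE TGACGTCA, the E-box CACGTG and the GC box GGGCGG, and no motif contains another. Over all 32851 windows of the same length, 0.417% held TTTGGCGC, 0.256% TTTCGCGC, 4.46% TGACTCA, 1.55% TGACGTCA, 6.02% CACGTG and 32.7% GGGCGG. None of the 10 windows held either E2F site or the AP-1 site, which says only that these letters are not in these windows.

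Rb1 (chromosome 14, 73195502 to 73325791, minus strand, 27 exons) encodes the retinoblastoma protein, the main substrate of cyclin D–CDK4/6. It was the least abundant of the 10 genes, with 249, 258 and 265 counts in the KO libraries and 247, 342 and 293 counts in the WT libraries. The deposited gene model starts at 73195502 and that of RefSeq at 73192858, so on the minus strand the model lacks a part of the 3′ end. Scaled to library size the counts were 9.79, 9.46 and 9.43 CPM in KO, against 10.6, 11.5 and 10.9 CPM in WT. The groups were apart by less than the range within WT. The fall was 1.15-fold (log2 −0.21, SE 0.09, edgeR adjusted p = 0.038), with a 95% interval of −0.39 to −0.03. The call was lost without KO replicate 2 (edgeR adjusted p = 0.082), without KO replicate 3 (0.086), without WT replicate 2 (0.12) and without WT replicate 3 (0.056), and with DESeq2 (DESeq2 adjusted p = 0.097). Relative to the median of chromosome 14, −0.11, the value was −0.10. Lpar6, within an Rb1 intron on the other strand, fell by 0.95 on the log2 scale (SE 0.16, edgeR adjusted p = 2.7e-07). Itm2b, 36.4 kb upstream on the same strand, was not called (log2 0.03, SE 0.03). Rcbtb2, 11.4 kb downstream on the other strand, was not called either (log2 −0.06, SE 0.06).

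In TPM, which allows levels to be ranked between genes, the order in KO from high to low was Ccnd1 (719 ± 10.7), Cdk4 (595 ± 2.55), Ccnd2 (357 ± 3.14), Cdkn2a (280 ± 8.45), Cdkn2b (94.6 ± 2.40), Cdk6 (73.4 ± 1.73), Ccnd3 (64.1 ± 2.85), Cdkn1b (48.4 ± 1.25), Cdkn2c (19.7 ± 0.53) and Rb1 (4.89 ± 0.13). In WT it was Cdk4 (657 ± 14.5), Ccnd1 (534 ± 4.63), Ccnd2 (367 ± 3.72), Cdkn2a (228 ± 8.67), Cdkn2b (82.4 ± 2.24), Ccnd3 (77.8 ± 2.52), Cdkn1b (64.8 ± 0.66), Cdk6 (53.7 ± 0.55), Cdkn2c (21.6 ± 0.25) and Rb1 (5.48 ± 0.34), each as mean TPM ± SD with n = 3. Neighbours in either order had ranges that did not overlap, and the closest were Cdkn2b and Ccnd3 in WT, at a ratio of 1.06. Of these, the lowest Cdkn2b library had 80.697 TPM and the highest Ccnd3 library 80.597 TPM. The order also rests on the deposited exon lengths, with the limits given above for the models of Ccnd2, Ccnd3, Cdk6, Cdkn2a and Rb1, so close ranks are not settled by the spread between libraries. Ccnd1 ranked first in KO and second to Cdk4 in WT. Cdk6 ranked sixth in KO, above Ccnd3 and Cdkn1b, and eighth in WT, below both. Both genes of the Cdkn2a–Cdkn2b locus were thus expressed in this line in both genotypes. The Cdkn2a count does not show whether p16INK4a, p19ARF or both were transcribed.

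**Figure D3:**
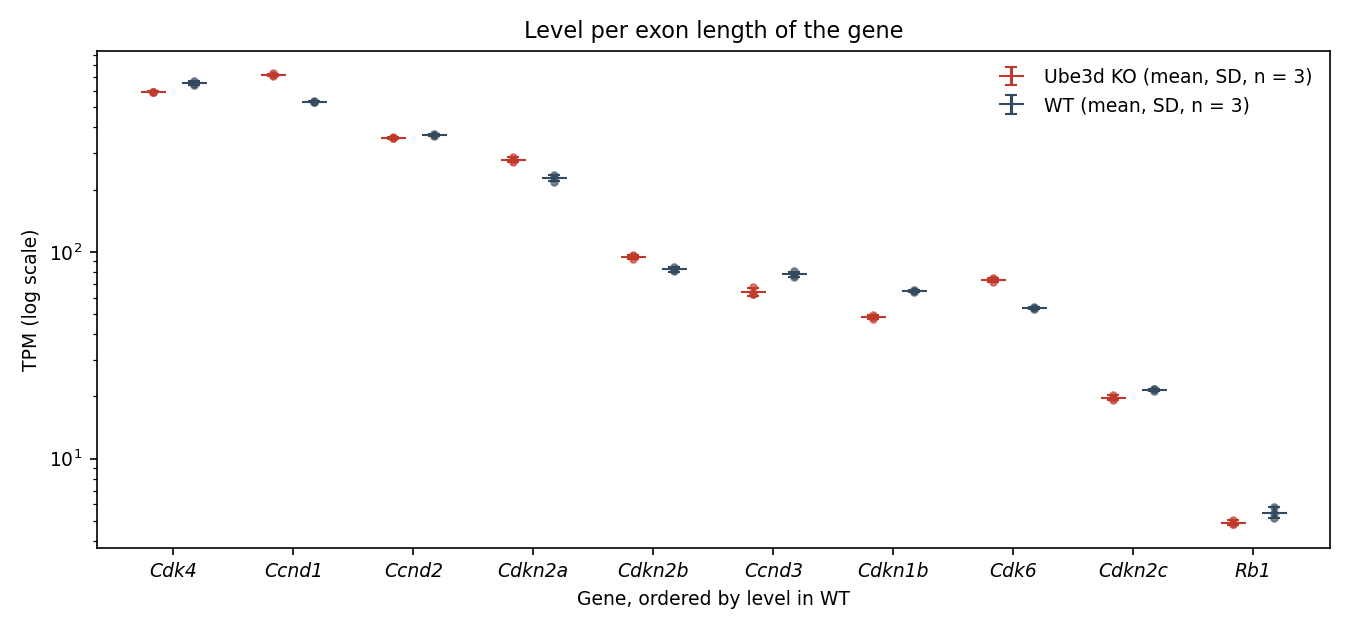
Level of each gene in TPM on a log axis, with KO left of WT, bars for the mean, error bars for the SD and points for the 3 libraries. Ccnd1 stands above Cdk4 in KO (719 and 595 TPM) and below it in WT (534 and 657 TPM), and Cdk6 stands above Cdkn1b in KO (73.4 and 48.4 TPM) and below it in WT (53.7 and 64.8 TPM).

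Other genes of the G1/S pathway were read from the same fit. Of 66 tested genes in 8 lists, 16 were higher and 31 lower in KO, and 19 were not called, beside 30.3% higher and 31.2% lower over all tested genes. The median log2 change was −0.09 over the lists and 0.004 over all tested genes. Among inhibitors outside the 10 genes, Cdkn1a, which encodes the p53-induced inhibitor p21, was 90.5 ± 1.9 CPM in KO and 40.1 ± 1.6 CPM in WT (2.26-fold, edgeR adjusted p = 2.1e-36). Cdkn2d (p19INK4d) was not called (log2 −0.15, SE 0.10, edgeR adjusted p = 0.16), and Cdkn1c had too few counts to test. The proteins p21 and p27 belong to the same CIP/KIP family, and their transcripts moved in opposite directions.

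Of 4 genes of cyclin E–CDK2, 3 were lower, none was higher and Ccne2 was not called, beside 31.2% of all tested genes called lower. With DESeq2, and without KO replicate 1, 2 or 3 or WT replicate 2 or 3, 2 were called lower, and Ccne1 was the gene lost. Cdk2 had 27.5 ± 2.42 CPM in KO and 33.9 ± 2.34 CPM in WT (1.23-fold lower), the CDK-activating phosphatase gene Cdc25a 37.0 ± 1.26 CPM in KO and 42.7 ± 0.85 CPM in WT, and Ccne1 33.1 ± 0.62 CPM in KO and 36.0 ± 0.44 CPM in WT. The RB1 relatives Rbl1 (p107) and Rbl2 (p130) were both lower, by 1.15-fold and 1.12-fold, so all 3 pocket protein genes were called lower, with the limits given above for Rb1. Rbl1 lies on chromosome 2, whose tested genes had a median of −0.24.

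Of 10 E2F and DP genes, 5 were higher and 4 lower, beside 30.3% and 31.2% of all tested genes, with a median of 0.13. The atypical repressors E2f8 and E2f7 went in opposite directions: E2f8 had 44.3 ± 1.95 CPM in KO and 28.2 ± 1.44 CPM in WT (1.57-fold higher), and E2f7 had 42.7 ± 1.65 CPM in KO and 57.9 ± 1.34 CPM in WT (1.35-fold lower). Tfdp1, the dimer partner of E2F proteins, was 1.20-fold lower, and E2f4, which acts mainly in repressor complexes with p107 and p130, was 1.25-fold lower. Without KO replicate 2, 2 genes of this list were called higher in place of 5.

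Genes known as targets of E2F were mostly lower. Of 19 tested in this list, 15 were lower, none was higher and 4 were not called, with a median of −0.20. Of all tested genes, 31.2% were called lower. The E2F, DP and cyclin E genes were counted in the lists above, where 5 of 10 E2F and DP genes were higher and 4 lower. Pcna, the DNA polymerase clamp, had 135 ± 2.33 CPM in KO and 198 ± 9.16 CPM in WT (1.47-fold lower), and it lies on chromosome 2. Mcm4 and Mcm5, subunits of the replicative helicase, were 1.37-fold and 1.35-fold lower, and Rrm1, a subunit of ribonucleotide reductase, 1.22-fold lower. The proliferation markers Mki67 and Top2a, both called lower, summed to 1270 to 1300 CPM in KO and 1380 to 1450 CPM in WT, and their part in these counts was not tested.

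Among 14 transcriptional regulators of D cyclins, p27 and INK4 genes, 8 were higher, 1 was lower and 5 were not called, beside 30.3% of all tested genes called higher, with a median of 0.18. The AP-1 subunit gene Fosl1 had 189 ± 8.14 CPM in KO and 113 ± 1.77 CPM in WT (1.67-fold higher). Jun had 148 ± 3.78 CPM in KO and 108 ± 3.00 CPM in WT (1.38-fold higher), and Junb and Ets1 were 1.25-fold and 1.24-fold higher. Ets2, in the same list, was not called (log2 −0.09, SE 0.05, edgeR adjusted p = 0.13). Foxo3 was 1.29-fold higher (edgeR adjusted p = 8.5e-06), and Foxo1 and Foxo4 were not called. Some AP-1 and ETS factors are known activators of Ccnd1, which need not hold for each gene named here. Whether any of the genes named here acts on Ccnd1, Cdkn1b or the INK4 genes was not tested.

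Of 10 genes for the turnover of D cyclins and p27, 2 were higher and 4 lower, beside 30.3% and 31.2% of all tested genes. The median was −0.03, and the share called was close to the 61.4% over all tested genes. Without KO replicate 2, 1 was called higher. Fbxo31, an F-box gene linked to cyclin D1 degradation after DNA damage, was at a low level, with 0.159 ± 0.16 CPM in KO and 1.62 ± 0.24 CPM in WT (log2 −3.29, SE 0.40). Cul1 and Skp2, parts of the SCF ligase that targets p27, were 1.17-fold and 1.14-fold lower. Rnf123, a ligase that targets p27 in G1, was 1.26-fold higher. In the same list Cks1b was called higher (1.1-fold, log2 0.14) and Skp1a was not called. Cks1b lies on chromosome 3, whose tested genes had a median log2 change of 0.30. Of 5 genes for the CDK-activating kinase and the chaperones of CDK4, 2 were lower, beside 31.2% of all tested genes. They were Hsp90ab1 (1.14-fold) and Ccnh (1.15-fold), and the other 3 were not called (list median −0.04).

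**Figure D4:**
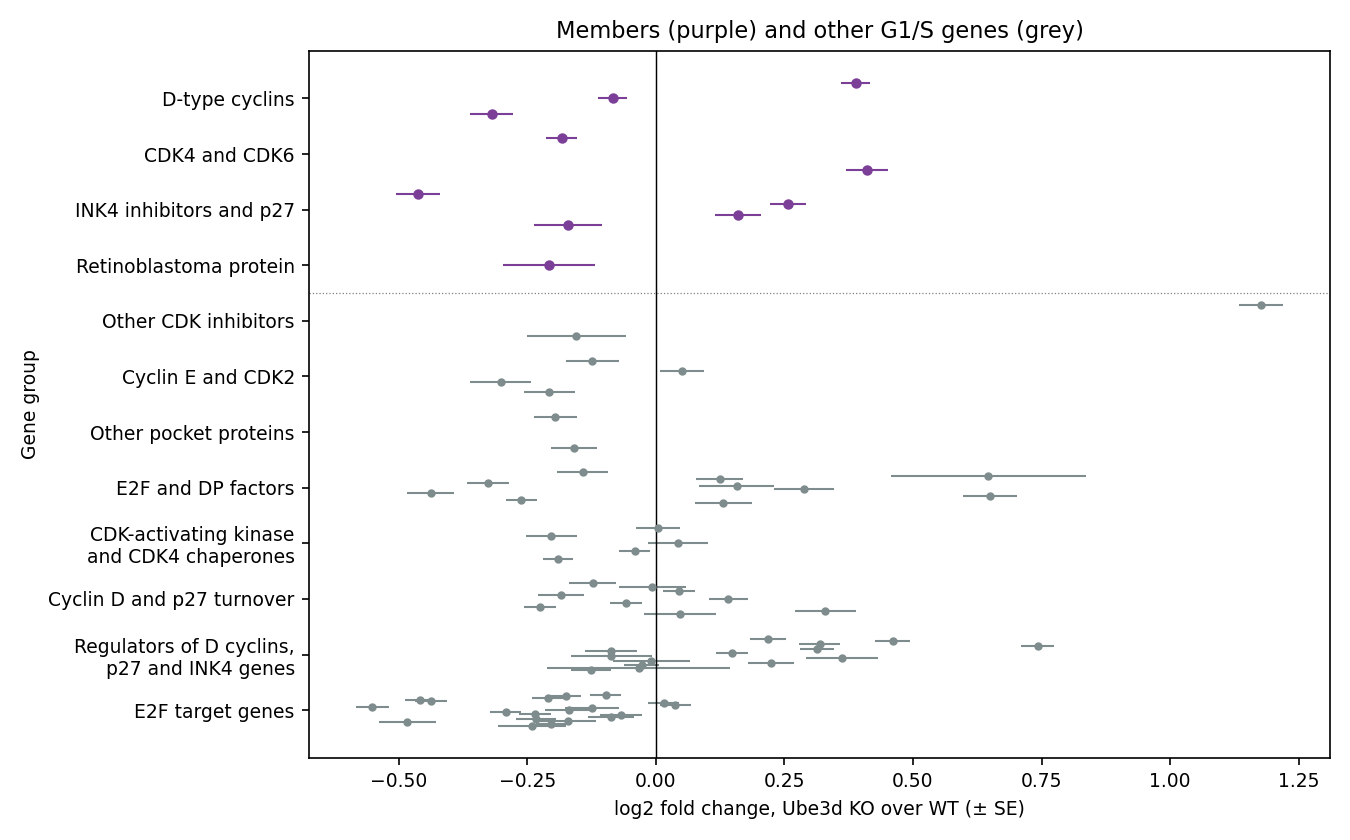
Each point is the log2 fold change of 1 gene, KO over WT, with its SE, for the 10 genes (purple, top) and for other tested genes of the G1/S lists (grey). Fbxo31 (−3.29) is left out of the plot. E2F targets lie mostly left of 0, with 15 of 19 called lower and Mcm6 and Mcm7 just right of it, and regulators lie mostly right of 0 with 8 of 14 called higher.

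The genes whose profiles over the 6 libraries were most like that of Cdk6, by the root mean square difference of log2 CPM centred on WT, were Ypel5 (0.0125), Ptpn14 (0.0152) and Arsb (0.019), among 8843 genes of at least 10 CPM on average. For Cdkn1b they were Anapc1 (0.0226), Dstn (0.0226) and Stk4 (0.0234), all on chromosome 2. Such likeness was common, since 707 genes lay within 0.1 of Cdk6 and 597 within 0.1 of Cdkn1b.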

How the data were processed

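Ribosomal RNA was depleted from total RNA and stranded libraries were made, per the labels' protocols. The authors' deposited table holds raw counts for each gene, as whole numbers with symbols, exon positions and strand. STAR 2.6.1d, featureCounts 1.6.3 and mm10 or GRCm38 appear in the submitters' processing notes without a stated role. The sources used here do not state the strand setting or how reads with several alignments were treated. A second deposited table, of counts downstream of genes, carries no region names and was not used here.

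Sample titles gave the group and replicate number of each library. Pairs of libraries within a genotype differed by more than sampling noise (chi-square per gene 2.05 to 6.50), so none was counted as a duplicate. The members and lists were chosen with earlier results of these data known. The genes to name were the 10 members, Ube3d, up to 4 called genes per pathway list with the smallest adjusted p, the 3 genes with profiles most like the members with the largest rise and fall, and neighbouring or overlapping genes.

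KO was tested against WT with edgeR 4.0.16 in R 4.3.3 (robust quasi-likelihood F test, TMM scaling, filterByExpr at a minimum count of 10 and total of 15), with Benjamini-Hochberg adjustment over all tested genes. CPM use TMM-scaled library sizes. TPM were computed from counts and the deposited merged exon length, without TMM scaling. SE was obtained as the size of the log2 fold change over the root of F. On simulated counts of 12817 genes for KO over WT, 66% of 50 genes changed 1.25-fold were called, and 95.9% of 49 changed 4-fold, with 8 false calls. Only 48 to 50 genes were changed at each fold size, a far smaller part than the 61.4% called in the data. These shares are therefore not the sensitivity of the real comparison. Alternatives were RLE scaling, no filter, DESeq2 1.42.0, a filter asking 1 CPM of 3 libraries, limma-voom (limma 3.58.1), the replicate number as a block, Rn45s left out, each library left out, and, for the members, subtraction of the chromosome median. Python 3.11.15, pandas 2.3.3, NumPy 2.4.6, SciPy 1.17.1 and matplotlib 3.10.9 were used.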

Additional observations from a re-analysis of the deposited data

How the results depend on the processing

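Over 13 refits of the whole table, the genes called numbered from 7027 (DESeq2) to 8196 (no count filter), against 7955 as reported. Without 1 library they numbered from 7387 to 7677. In each refit 4 of the 10 genes were called higher, and 4 to 6 were called lower. The 8 calls lost were all of Rb1 or Cdkn2c, which had the fewest counts of the 10. The cause was not tested. No log2 value of the 10 genes changed sign in any refit. After subtraction of the chromosome median Ccnd2 turned to 0.011, and Cdk4 (−0.13), Cdk6 (0.22), Cdkn1b (−0.37) and Rb1 (−0.10) kept their direction but moved by more than their SE. Other pathway genes called higher numbered 12 to 17 and those called lower 28 to 31. Libraries with the same replicate number did not deviate together (correlations −0.033 to −0.029, against 0.0089 to 0.022 for the other pairs). Counting noise also enters these deviations, so the check cannot exclude a pairing. With the replicate number as a block, 7816 genes were called, and of the 10 genes only Rb1 lost its call (log2 −0.21, edgeR adjusted p = 0.051). Shares taken from counts with no division by length moved by 8.46 (Ccnd1), −7.33 (Ccnd2), −1.13 (Ccnd3) and 5.40 (Cdk6) percentage points, in the directions reported. Without 1 library the difference in share ranged from 8.49 to 8.68 points for Ccnd1, −6.33 to −6.09 for Ccnd2, −2.43 to −2.16 for Ccnd3 and 3.33 to 3.55 for Cdk6.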
